A study of Mus musculus with 27 samples.

Results

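The osteoclast effector genes examined here were 10 genes out of the 37991 in the expression tables, taken by name and not through a cut on any measured value. The list was made with earlier results of these data known. They comprised the resorption enzymes Acp5, Ctsk and Mmp9, the acid and chloride transporters Atp6v0d2 and Clcn7, the fusion proteins Dcstamp and Ocstamp, the receptors Oscar and Calcr, and the transcription factor Nfatc1. All 10 were found in the tables by Ensembl gene identifier, Dcstamp under its older symbol Tm7sf4 and Ocstamp under 4833422F24Rik. They were divided by where they are known to be expressed. Acp5, Oscar, Calcr, Dcstamp, Ocstamp and Atp6v0d2 belong mainly to osteoclasts and their myeloid relatives, whereas Ctsk, Mmp9, Clcn7 and Nfatc1 are also made by osteoblast-lineage cells or by many other cell types.

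Osteoclasts are the multinucleated cells that dissolve bone. They arise by fusion of monocyte and macrophage precursors when M-CSF (Csf1) acts on its receptor Csf1r and RANKL (Tnfsf11) on its receptor RANK (Tnfrsf11a), with co-stimulation through immune receptors that pair with Tyrobp or Fcer1g. The signal converges on Nfatc1, which switches on the genes for fusion, for acidification of the space beneath the cell and for digestion of the matrix. Osteoblasts and their stroma supply the M-CSF and RANKL, together with the RANKL decoy osteoprotegerin (Tnfrsf11b), so cultures of these cells can hold both sides of the system.

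The cells came from the flat skull bones (calvariae) of C57BL/6J-Col3.6 CFP mice aged 5 to 9 days, in which a Col3.6 collagen promoter fragment drives cyan fluorescent protein in cells of the osteoblast lineage. After 4 days of growth the fluorescent cells were collected by flow sorting, replated and held in medium with serum, ascorbic acid and β-glycerol phosphate, and RNA was taken on 9 days, every other day from day 2 to day 18. All groups therefore shared strain, transgene, sort and medium, and the labels name no difference between them but the day. No M-CSF or RANKL is named among the additions, and no second sort is described. Each day held 3 profiles of 1 barcode that differed in sequencing lane, and they were summed to 1 library per day.

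The libraries held between 22470195 and 62009157 counts. Over the 53 combinations of gene and day with at least 15 counts, the lane profiles of the effector genes differed by no more than sampling noise (chi-square per degree of freedom 1.11, p = 0.203). Every spread given below as an SD (n = 3 lanes) is therefore technical, and day and library cannot be told apart. Of 6 osteoblast markers 4 rose (Col1a1, Runx2, Ibsp and Bglap), and Sp7 and Alpl were not called. Col1a1 went from 1526 TPM on day 2 to 4263 on day 18, and Runx2 lay between 42.0 and 65.7 TPM. Sp7 dropped from 32.3 TPM on day 2 to 2.77 on day 8 and stood at 10.6 on day 18. Alpl dropped from 9.13 TPM on day 2 to 0.467 on day 6 and reached 17.6 on day 18. The label osteoblast was thus met by the levels of Col1a1 and Runx2, but not by every marker on every day. Monocyte and macrophage markers were in the same libraries: the summed level of 7 such genes (Cd14, Cd68, Csf1r, Emr1, Itgam, Lyz2 and Ptprc) was 19.6 to 41.9 CPM (counts in each 1000000, with upper-quartile factors) on days 2 to 6 and 350 to 1353 on days 14 to 18, and 6 of the 7 rose by the test given below. The part of these cells in the results below was not tested. In RNA from a whole culture, fewer cells of a type and less RNA per cell cannot be told apart.

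The Acp5 and Ctsk starts are shown because these are the resorption enzymes with the most counts, and because Acp5 has 3 alternative first exons that bear on its length below. The 250 bases before each RefSeq start (build GRCm38.p6) are given 5′ to 3′ on the strand of the gene, Ctsk at chr3:95498960-95499209 on the plus strand and Acp5 on the minus strand at chr9:22135747-22135996, chr9:22131866-22132115 and chr9:22130599-22130848. Capitals mark matches, on either strand, to an NFAT core (GGAAA), a PU.1 motif (GAGGAAG), an E-box (CACGTG), the M-box core read by Mitf (CATGTG) or an AP-1 motif (TGANTCA).
Ctsk: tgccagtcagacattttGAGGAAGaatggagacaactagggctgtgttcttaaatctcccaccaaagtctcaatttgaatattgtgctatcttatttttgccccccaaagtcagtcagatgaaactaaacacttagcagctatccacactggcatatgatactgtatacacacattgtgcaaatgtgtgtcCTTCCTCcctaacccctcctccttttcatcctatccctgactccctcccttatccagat
Acp5 first start: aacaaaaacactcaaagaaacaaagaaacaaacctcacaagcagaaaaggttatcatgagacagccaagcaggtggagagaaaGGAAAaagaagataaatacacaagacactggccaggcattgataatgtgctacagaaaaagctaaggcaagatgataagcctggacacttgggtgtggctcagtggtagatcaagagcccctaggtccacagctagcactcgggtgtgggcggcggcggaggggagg
Acp5 second start: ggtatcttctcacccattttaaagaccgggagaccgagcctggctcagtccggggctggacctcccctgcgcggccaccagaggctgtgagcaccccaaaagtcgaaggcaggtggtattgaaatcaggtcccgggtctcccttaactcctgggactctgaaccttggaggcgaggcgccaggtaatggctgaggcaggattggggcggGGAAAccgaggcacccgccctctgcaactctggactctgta
Acp5 last start: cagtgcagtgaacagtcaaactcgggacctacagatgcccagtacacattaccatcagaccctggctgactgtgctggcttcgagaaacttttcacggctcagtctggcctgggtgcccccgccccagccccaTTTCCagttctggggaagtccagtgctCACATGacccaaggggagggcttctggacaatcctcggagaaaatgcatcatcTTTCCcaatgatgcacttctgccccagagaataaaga
The Ctsk window held 2 PU.1 matches and none of the other 4 motifs. The first and second Acp5 windows held 1 NFAT core each, and the last held 2 NFAT cores and 1 M-box core. Of 32851 promoter windows, 55.6% held the NFAT core, 10.6% the PU.1 motif, 12.3% the M-box core, 6.02% the E-box and 6.75% the AP-1 motif. Matches were counted in windows that run past the start, for Ctsk to chr3:95499259, and so are longer than the sequences shown. The length of the 32851 windows is not given here. No GGAAA match can share its GGAA with a GAGGAAG match, since the next base differs. RefSeq entries matched 5 of the 10 genes. In the windows of the other three, Oscar had 3 NFAT cores, 1 PU.1 match and 1 M-box core, Clcn7 had 1 NFAT core and 1 E-box at its first start and 1 M-box core at its second, and Calcr had 1 NFAT core in 1 of 2 windows. A match describes the letters only.

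Of the 10 genes, 4 rose with day (Acp5, Ctsk, Mmp9 and Atp6v0d2), 1 fell (Nfatc1), 3 were tested and not called (Oscar, Ocstamp and Clcn7) and 2 had no count in any library (Calcr and Dcstamp). The test was edgeR's quasi-likelihood test of a straight line in day over all 15659 genes that passed a filter on low counts, with a Benjamini-Hochberg adjusted p under 0.05. In that fit 54.3% of all genes tested followed day, 28.3% rising and 26.1% falling, so that a change with day was common in these cultures. Between days 2 and 18 the median log2 change of the fit was 2.39 over the 8 effector genes that passed the filter and 0.05 over all genes tested. The median leaves out Calcr and Dcstamp, which were at 0. It includes Ocstamp, which had at least 10 counts on days 12, 14 and 18 alone, so it is a description only. Days 14 to 18 all lay above days 2 to 6 for 4 of the genes and all below for 1, where 31.7% and 30.5% of all genes tested did so. Among the 6 genes mainly of osteoclasts and their relatives, 2 rose, 2 were not called and 2 were at 0. Among the 4 that other cells also make, 2 rose, 1 fell and 1 was not called.

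**Figure D1:**
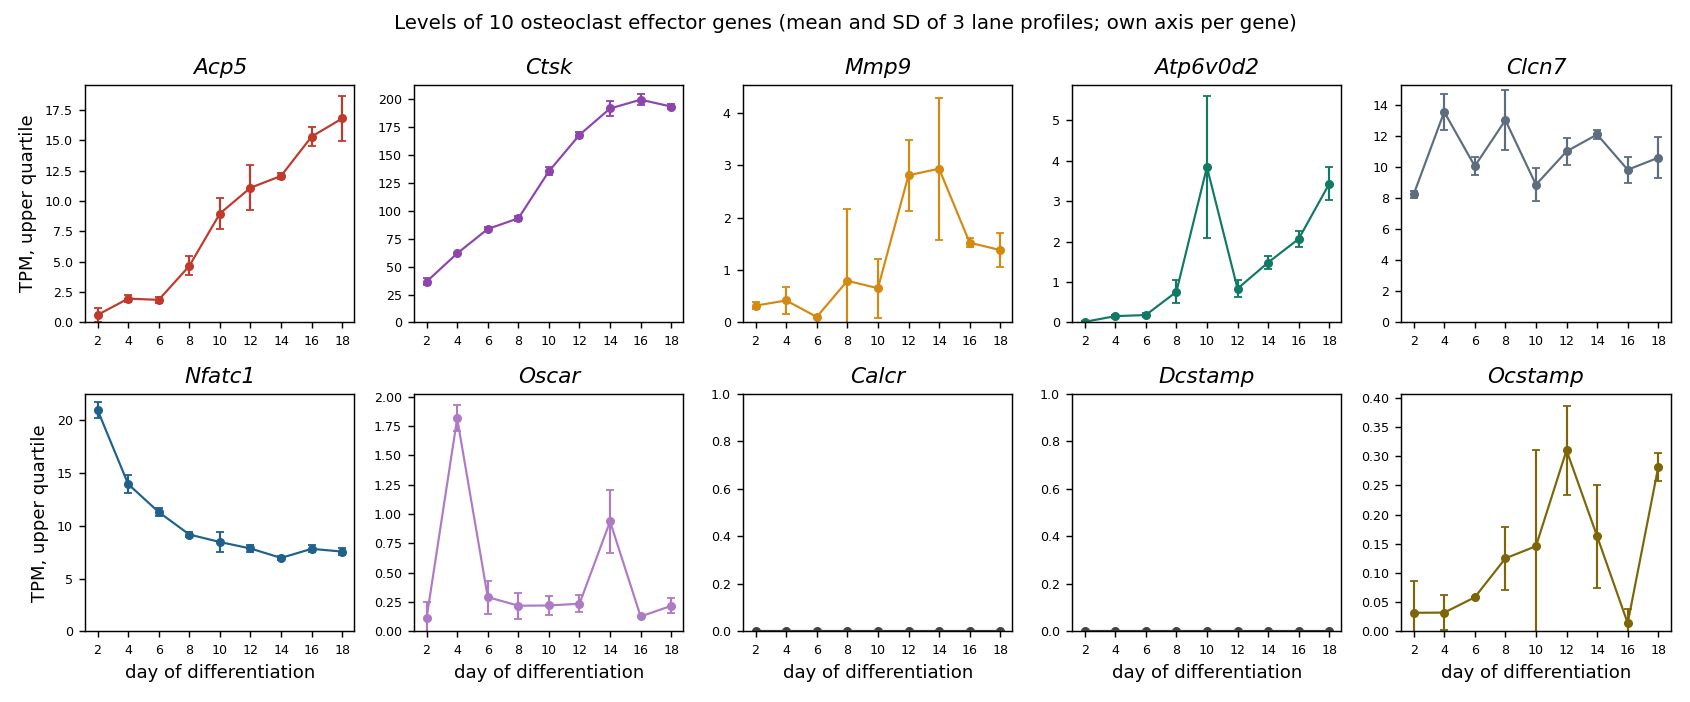
Level of each of the 10 genes in TPM (transcripts in each 1000000, scaled to a common upper quartile) against day of differentiation, each on its own vertical axis. Points are means and bars the SD of 3 lane profiles of 1 library. Acp5 climbed from 0.618 to 16.8 TPM and Ctsk from 36.5 to 193, Nfatc1 went from 21.0 to 7.57, and Calcr and Dcstamp lay at 0 throughout.

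Acp5 encodes tartrate-resistant acid phosphatase, the enzyme whose stain is used to recognise osteoclasts, and some macrophages make it too (chr9:21931175-21940190, minus strand, in build NCBIM37, on which all gene positions are given here). From day 2 to day 18 its counts were 19, 60, 61, 107, 152, 447, 378, 527 and 506. Per transcript length these were 0.618 ± 0.580 (SD, n = 3 lanes), 1.96 ± 0.269, 1.86 ± 0.259, 4.65 ± 0.783, 8.97 ± 1.31, 11.1 ± 1.83, 12.1 ± 0.259, 15.3 ± 0.790 and 16.8 ± 1.83 TPM. The level was lowest on day 2, stood still between days 4 and 6, and was higher on every day from 8 onward than on any day before. It first reached 50% of its highest level on day 10. Acp5 had a fitted log2 change of 4.36 (SE 0.56), a 20.5-fold rise (edgeR quasi-likelihood test, Benjamini-Hochberg adjusted p = 0.000168). The pooled share of counts on days 14 to 18 was 9.19 times that on days 2 to 6 (95% exact interval 7.72 to 11, counting error only). In the single libraries its share was 0.449 CPM on day 2 (95% Wilson interval 0.288 to 0.702) and 11.4 CPM on day 18 (10.4 to 12.4). Without the library of day 2 the fitted log2 change was 3.77. Of all genes tested, 96.0% had a smaller fitted change.

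The 3 annotated Acp5 transcripts begin at the 3 starts shown above and have their 3′ 1274 bases in common. Their own 5′ ends are 133 bases for Acp5-203 (first start), 128 for Acp5-201 (second start) and 75 for Acp5-202 (last start). RSEM, which estimated the counts, also reports a mean length over the transcripts it assigned, and this length equals that of a single transcript in most profiles. It equalled Acp5-202 in 5 profiles with 55 counts, all of days 2 and 4, Acp5-203 in 2 profiles with 41 counts on day 6, and Acp5-201 in 17 profiles with 1835 counts on days 4 to 18. In the other 3 profiles, with 326 counts, it lay between lengths. The lanes of days 4 and 6, which are 1 library each, were given different transcripts, and how many reads reached the 5′ ends that tell them apart is not known from the tables.

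Ctsk encodes cathepsin K, the collagen-degrading protease of the resorption space, which osteoblast-lineage and fibroblast-like cells also make (chr3:95303208-95313284, plus strand). It had the highest level of the 10 genes on both the first day and the last. The counts on the successive days were 1278, 2093, 2943, 2308, 2465, 7244, 6459, 7365 and 6260. From day 2 to day 12 the level was 36.5 ± 3.37 (SD, n = 3 lanes), 61.8 ± 0.605, 83.7 ± 2.12, 93.2 ± 2.14, 135 ± 3.77 and 168 ± 2.87 TPM. Days 14, 16 and 18 had 192 ± 6.57, 199.6 ± 4.67 and 193 ± 2.11 TPM. Each day to day 14 lay above the one before by more than the lane spread, and the last 3 days overlapped. In the fit the log2 change of Ctsk was 2.29 (SE 0.26), a 4.90-fold rise (edgeR quasi-likelihood test, Benjamini-Hochberg adjusted p = 9.28e-05), and Ctsk too first reached 50% of its highest level on day 10. By TPM, and among the genes detected on the day in question, it already stood above 84.0% on day 2 and above 97.3% on day 18. Beside Acp5 it moved less: the ratio of Ctsk to Acp5 in TPM was 59.1, 31.6, 45.1, 20.1, 15.1, 15.2, 15.9, 13 and 11.5 on the successive days. The ratio was lower on every day from 8 on than on days 2 to 6, though it did not fall at each step. On days 2 to 6 it rested on 19 to 61 Acp5 counts in a library.

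Mmp9 encodes gelatinase B, a protease of denatured collagen found in osteoclasts, neutrophils and macrophages (chr2:164766280-164781350, plus strand). Its counts were 20, 7, 5, 4 and 22 from day 2 to day 10, and then 143, 137, 74 and 92 from day 12 to day 18. Scaled for depth these were 0.480, 0.164, 0.108, 0.127, 0.986, 2.40, 3.08, 1.49 and 2.15 CPM, lowest on days 4 to 8 and highest on days 12 and 14. Between days 8 and 10 the 95% Wilson intervals of the unscaled CPM (0.0522 to 0.345 and 0.647 to 1.48) did not overlap. Its level was 2.81 ± 0.675 (SD, n = 3 lanes), 2.93 ± 1.35, 1.52 ± 0.0843 and 1.38 ± 0.320 TPM from day 12 on. The highest value before, 0.793 ± 1.37 TPM on day 8, came from 4 counts in 1 of the 3 lane profiles. TPM also turned on the assigned mean length, 1409 to 2335 bases on day 12 and 2542 to 3175 on day 18, whereas CPM on these days was 2.40 and 2.15. The fitted log2 change was 3.90 (SE 1.12, edgeR quasi-likelihood test, Benjamini-Hochberg adjusted p = 0.0131). It was 5.45 without the library of day 2, past the threshold. In a natural spline the difference between days 2 and 18 was 1.99. The spline test, which Mmp9 also passed, was of any change over the days and not of this difference. The pooled late share was 8.63 times the early one (95% exact interval 5.98 to 12.8). Markers of neutrophils, which also make Mmp9, had 37 counts in all over 7 genes and 9 days, with S100a9, Mpo and Ltf at 0.

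Atp6v0d2 encodes the d2 subunit of the proton pump's membrane sector, which osteoclasts use in acid secretion and in fusion and which macrophages also make (chr4:19803988-19849752, minus strand). From day 2 to day 18 it had 1, 10, 12, 35, 29, 52, 94, 143 and 208 counts. On the CPM scale the gene climbed from 0.0240 on day 2 to 4.86 on day 18, with day 12 (0.874) below days 8 (1.11) and 10 (1.3). Its fitted log2 change was 5.21 (SE 0.73, edgeR quasi-likelihood test, Benjamini-Hochberg adjusted p = 0.000255). Without the library of day 2, with its 1 count, it was 4.57, below the 5.45 of Mmp9, and with a natural spline in day 6.91. The pooled late share was 17.6 times the early one (95% exact interval 11.6 to 28.1). Per length the highest value was 3.84 ± 1.75 TPM (SD, n = 3 lanes) on day 10 and not the 3.43 ± 0.403 of day 18. The day 10 value rested on 29 counts that RSEM placed on a transcript of mean length 765 to 806 bases, where on day 18 the length was 2539.

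Nfatc1, the transcription factor that directs osteoclast formation and is also found in lymphocytes, endothelium and osteoblasts, went the opposite way (chr18:80802944-80909810, minus strand). Its counts were 2614, 1678, 1410, 806, 549, 1210, 837, 1026 and 871 on the successive days. In TPM these were 21.0 ± 0.771 (SD, n = 3 lanes), 14.0 ± 0.851, 11.3 ± 0.403, 9.19 ± 0.216, 8.48 ± 0.903, 7.86 ± 0.322, 6.97 ± 0.171, 7.83 ± 0.322 and 7.57 ± 0.309. Most of the fall came by day 8, and the values from day 10 on lay between 6.97 and 8.48 TPM, with day 14 lowest. The fitted log2 change was -1.45 (SE 0.24, edgeR quasi-likelihood test, Benjamini-Hochberg adjusted p = 0.000597), which is 2.74-fold lower on day 18 than on day 2. The pooled early share was 2.29 times the late one. Nfatc1 was thus highest in the library with the least Acp5 and Atp6v0d2 and the lowest summed macrophage markers, although Csf1r was not at its lowest there (2.93 CPM on day 2 against 1.49 on day 6).

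Clcn7, the chloride and proton exchanger of lysosomes and of the osteoclast's ruffled border, is found in nearly all cells (chr17:25270336-25299049, plus strand). It held 824, 1087, 1016, 798, 466, 1328, 1076, 1003 and 1010 counts on the successive days. Its level was 8.25 ± 0.225 TPM (SD, n = 3 lanes) on day 2 and between 8.87 ± 1.07 on day 10 and 13.6 ± 1.14 on day 4 on the others, with no order in day. Clcn7 had a fitted log2 change of 0.05 (SE 0.16, edgeR quasi-likelihood test, Benjamini-Hochberg adjusted p = 0.828). The pooled late share was 0.962 times the early one (95% exact interval 0.914 to 1.01).

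The fusion and receptor genes were scarce. Calcr, the calcitonin receptor, and Dcstamp, the membrane protein that osteoclast precursors need in order to fuse, had 0 of 382138301 counts, which allows up to 0.00785 CPM at 3 counts over all libraries. In single libraries the same limit was 0.0484 to 0.134 CPM. Calcr lies at chr6:3635677-3714713 (minus strand) and holds the microRNA genes Mir653 and Mir489, and Dcstamp lies at chr15:39577478-39592480 (plus strand). Oscar, the collagen-binding immune receptor that pairs with Fcer1g (chr7:3561415-3567759, minus strand), had 5, 29, 13, 7, 5, 13, 37, 6 and 9 counts on the successive days. Its 2 higher days, 4 and 14, were followed each time by a lower one. The fitted log2 change was -0.12 (SE 1.06, edgeR quasi-likelihood test, Benjamini-Hochberg adjusted p = 0.932), and the pooled late share was 1.01 times the early one (95% exact interval 0.666 to 1.53). Its highest level, 1.82 ± 0.110 TPM (SD, n = 3 lanes) on day 4, also came with a short mean length, 702 to 1058 bases against 1796 on days 12 and 16.

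Ocstamp, the partner of Dcstamp in fusion (chr2:165219260-165225905, minus strand), never reached 1 TPM. Its estimated counts were 3, 3, 6.06, 8.36, 7.3, 37.4, 15.4, 1.16 and 25.8 on the successive days. They are not whole because RSEM divided reads that also matched other genes, so these values are uncertain. The fitted log2 change was 2.49 (SE 1.26, edgeR quasi-likelihood test, Benjamini-Hochberg adjusted p = 0.119), and the early and late days overlapped. Without the library of day 16, which had the fewest counts, it was 3.35 (edgeR quasi-likelihood test, Benjamini-Hochberg adjusted p = 0.00885).

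Per length, the order on day 2 was Ctsk (36.5 TPM), Nfatc1 (21.0), Clcn7 (8.25), Acp5 (0.618), Mmp9 (0.320), Oscar (0.115), Ocstamp (0.0319) and Atp6v0d2 (0.0129). On day 18 it was Ctsk (193 TPM), Acp5 (16.8), Clcn7 (10.6), Nfatc1 (7.57), Atp6v0d2 (3.43), Mmp9 (1.38), Ocstamp (0.282) and Oscar (0.218). Acp5 had thus moved from the fourth place to the second, past both Clcn7 and Nfatc1. On day 18 the neighbours Ocstamp and Oscar did not differ beyond their lane spread (0.0236 and 0.0643 TPM), while the higher neighbours did. At least 1 TPM was reached on some day by 7 of the 10 genes, all but Ocstamp, Calcr and Dcstamp. Of all 37991 genes, 15360 did so. For Oscar this was day 4 alone.

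**Figure D2:**
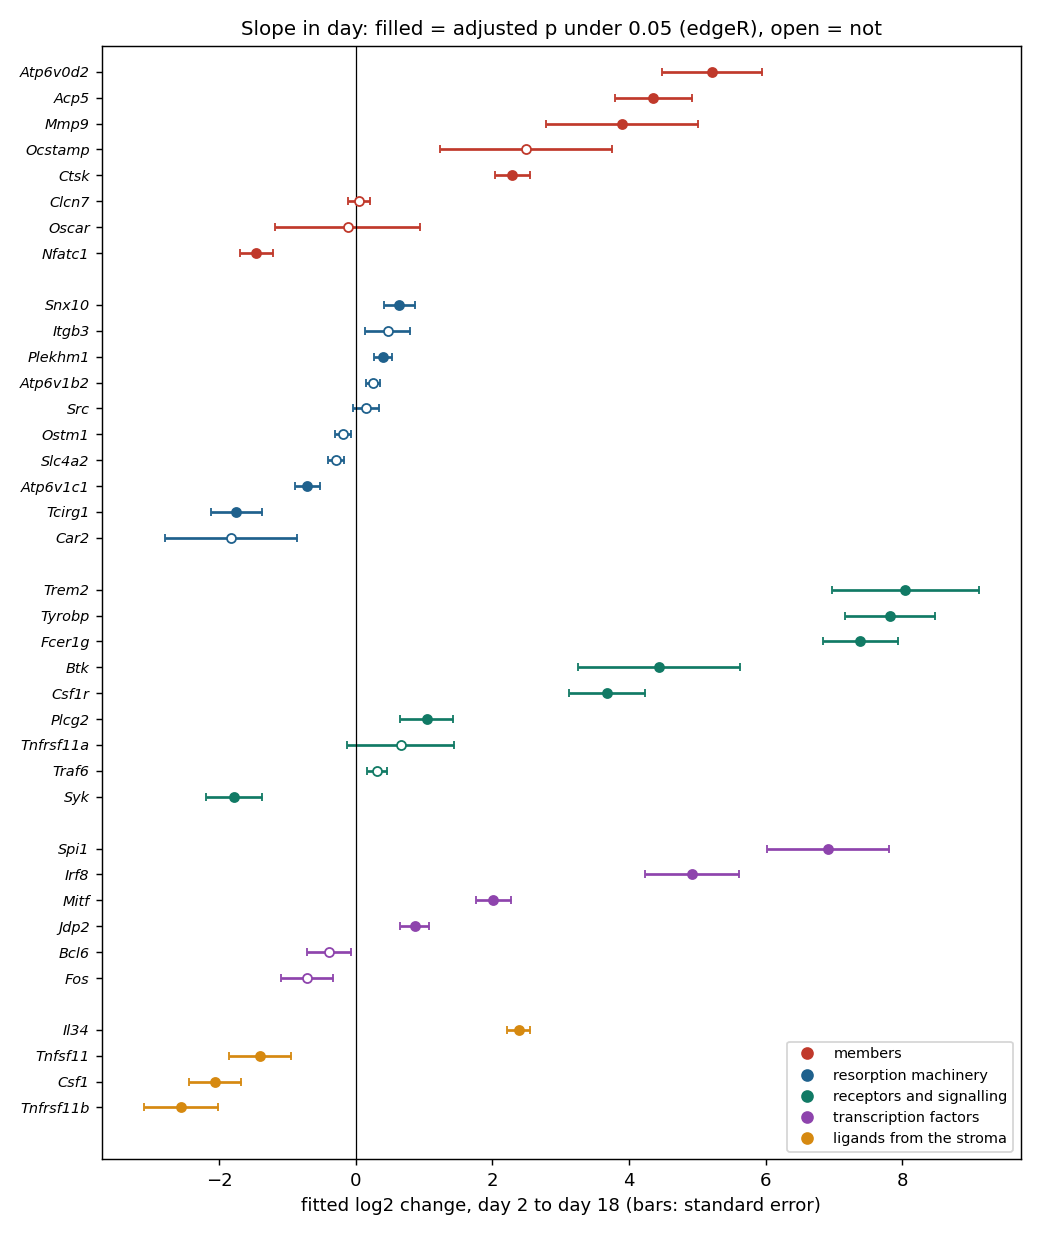
Fitted log2 change from day 2 to day 18 (horizontal axis) of the 8 effector genes that passed the filter and of related genes grouped by role, with bars of 1 standard error. Filled circles passed an adjusted p under 0.05 by edgeR's quasi-likelihood test and open circles did not. The effector genes run from -1.45 for Nfatc1 to 5.21 for Atp6v0d2, while the resorption machinery lies on both sides of 0.

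Genes that work beside them were taken from a list by role, 26 in all, of which 25 passed the filter. With edgeR's quasi-likelihood test 12 rose, 3 fell and 10 were not called, against 28.3% rising and 26.1% falling over all genes tested. The groups differed in their counts. Among 10 genes of the resorption machinery, 2 rose (Snx10, log2 change 0.64, and Plekhm1, 0.40, both of vesicle traffic), 2 fell and 6 were not called. Those that fell were Tcirg1, the osteoclast-type a3 subunit of the proton pump's membrane sector (-1.75, SE 0.37, adjusted p = 0.00262), and the V1 subunit gene Atp6v1c1 (-0.71, SE 0.18, adjusted p = 0.00806). Tcirg1, whose estimated counts were not whole, went from 13.5 TPM on day 2 and 22.0 on day 6 to 9.62 on day 18. The d2 and a3 subunit genes of the same pump sector, Atp6v0d2 and Tcirg1, thus had changes of opposite sign. Car2, the carbonic anhydrase that supplies the protons, had 7, 13, 16, 14, 4, 6, 2, 3 and 7 counts on the successive days and was not called.

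Of 9 receptor and signalling genes, 6 rose, 1 fell and 2 were not called. Those that rose included the M-CSF receptor Csf1r (log2 change 3.68, SE 0.55, edgeR quasi-likelihood adjusted p = 0.000367), the adaptors Tyrobp (7.82, SE 0.66) and Fcer1g (7.39, SE 0.55), and Trem2, a partner of Tyrobp (8.04, SE 1.08). These are shared by macrophages and osteoclasts. The RANK gene Tnfrsf11a, whose product starts the osteoclast pathway, had 86, 48, 57, 12, 12, 57, 29, 45 and 169 counts on the successive days. It was high on day 2 and highest on day 18, with a fitted log2 change of 0.66 (SE 0.78, adjusted p = 0.504). Syk, the kinase downstream of Tyrobp, fell (-1.78, SE 0.41, adjusted p = 0.00429).

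Of 7 transcription factor genes, 6 passed the filter, 4 rose (Spi1, Mitf, Irf8 and Jdp2) and 2 (Fos and Bcl6) were not called. The myeloid factor Spi1, which encodes PU.1, had a log2 change of 6.91 (SE 0.89), and Mitf, which acts on Acp5 and Ctsk, one of 2.01 (SE 0.26). Irf8, which favours macrophages and restrains osteoclast formation, rose as well (4.92, SE 0.69, edgeR quasi-likelihood adjusted p = 0.000248), from 0.0193 TPM on day 2 to 1.16 on day 18. Nfatc1 was thus the one tested transcription factor of the pathway, in these lists, whose expression fell.

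The ligands of the system also moved. Csf1 went from 848 TPM on day 2 to 215 on day 18 (log2 change -2.06, SE 0.38, edgeR quasi-likelihood adjusted p = 0.00109), and Tnfrsf11b from 55.2 to 11.5 TPM (-2.55, SE 0.54, adjusted p = 0.00269). Tnfsf11, the RANKL gene, was low throughout and went from 2.60 to 1.13 TPM (-1.40, SE 0.46, adjusted p = 0.0240). Il34, the second ligand of Csf1r, rose from 6.54 to 25.6 TPM (2.39, SE 0.17, adjusted p = 1.1e-05). The 4 rising effector genes were therefore highest on days when Csf1, Tnfsf11 and Tnfrsf11b were below their day 2 level.

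**Figure D3:**
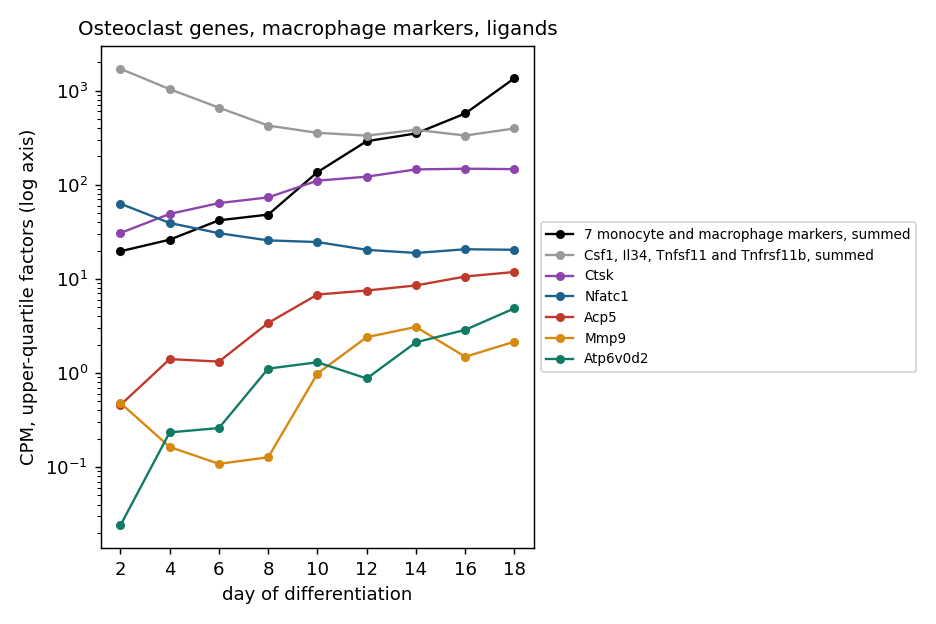
CPM (log axis, upper-quartile factors) against day for 5 effector genes, for the summed 7 monocyte and macrophage markers and for the summed 4 ligand genes. CPM is not corrected for transcript length, so shapes and not heights can be compared between lines. The marker sum went from 19.6 to 1353 and the ligand sum from 1705 to 396 between days 2 and 18.

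Whether an effector gene kept pace with the M-CSF receptor of the macrophage lineage was examined through its counts relative to Csf1r within each library, which need no scaling between libraries. Csf1r itself rose (fitted log2 change 3.68). The ratio must then fall for a gene whose level held, as that of Clcn7 did (0.05), or fell, as that of Nfatc1 did (-1.45). For these genes the test repeats the fits given above. Nfatc1 fell against Csf1r. From day 2 to day 18 its log2 ratio was 4.41, 4.64, 4.35, 3.66, 2.98, 1.82, 1.25, 0.83 and -0.45. The correlation with day was r = -0.974 (exact permutation test over 9 days, two-sided, p = 1.65e-05, adjusted over the 8 genes tested p = 0.000132) and rho = -0.983 (exact permutation p = 4.96e-05, adjusted p = 0.000397). Without days 2 and 18, which lie farthest from the median day, r was -0.990 (exact permutation p = 0.000397). Clcn7 fell against Csf1r too, from a log2 ratio of 2.75 on day 2 and 4.01 on day 4 to -0.24 on day 18. For it r was -0.874 (exact permutation p = 0.00249, adjusted p = 0.00994), rho -0.900 (exact permutation p = 0.00203, adjusted p = 0.00811) and r without days 2 and 18 -0.980 (exact permutation p = 0.000397).

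The other 6 genes did not pass this test. Acp5 rose from a log2 ratio of -2.65 on day 2 to 1.13 on day 10 and came back to -1.24 on day 18 (r = 0.241, exact permutation p = 0.549, adjusted p = 0.627, and rho = 0.200, exact permutation p = 0.613, adjusted p = 0.701). Without days 2 and 18 its r was 0.0434 (exact permutation p = 0.926). Atp6v0d2 took a like course, from -6.35 on day 2 to -0.85 on day 8 and -2.52 on day 18 (r = 0.483, exact permutation p = 0.188, adjusted p = 0.301, and rho = 0.300, exact permutation p = 0.437, adjusted p = 0.582), with r = 0.143 (exact permutation p = 0.752) without days 2 and 18. Both had their highest ratio in the middle of the series, Atp6v0d2 on day 8 and Acp5 on day 10. Csf1r had 63.5 and 69.2 counts on these days, or 2.00 and 3.09 CPM with upper-quartile factors. On days 4 and 6 it had 1.57 and 1.49 CPM. The estimated counts of Csf1r were not whole. Ctsk had its highest ratio, 5.41, on day 6 and its lowest, 2.39, on day 18 (r = -0.501, exact permutation p = 0.168, adjusted p = 0.301, and rho = -0.433, exact permutation p = 0.250, adjusted p = 0.50). Without days 2 and 18 its r was -0.861 (exact permutation p = 0.0139). Oscar had r = -0.714 (exact permutation p = 0.0315, adjusted p = 0.0841) and rho = -0.683 (exact permutation p = 0.0503, adjusted p = 0.134), with r = -0.876 (exact permutation p = 0.00794) without days 2 and 18. For Mmp9 r was 0.151 (exact permutation p = 0.691, adjusted p = 0.691) and rho 0.0833 (exact permutation p = 0.843, adjusted p = 0.843), with r = 0.546 (exact permutation p = 0.200) without days 2 and 18. For Ocstamp r was -0.430 (exact permutation p = 0.256, adjusted p = 0.341) and rho -0.367 (exact permutation p = 0.336, adjusted p = 0.538), with r = -0.595 (exact permutation p = 0.148) without days 2 and 18. A p above 0.05 does not show that a gene moved as Csf1r did. Nor does a small p allow for likeness between successive days, since the permutation treats the 9 days as exchangeable. The share of all genes that would pass was not computed, so the counts of genes past the threshold are no result about the effector genes. The number of genes past the threshold turned on the reference and on single libraries: it was 5 with the sum of all 7 markers in place of Csf1r, 4 without day 2 and 1 without day 18. Nfatc1 alone passed under each of these.

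**Figure D4:**
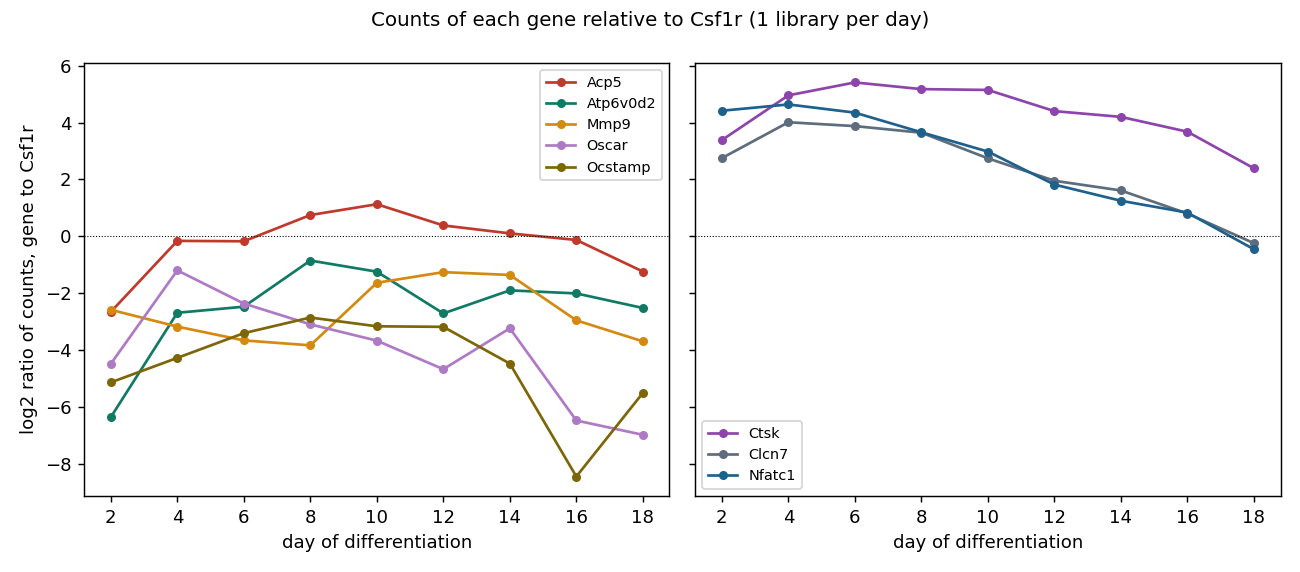
Log2 ratio of the counts of each of 8 effector genes to those of Csf1r against day, 1 library per day, 5 genes on the left and 3 on the right on a common vertical axis. Nfatc1 goes from 4.41 to -0.45 and Clcn7 from 2.75 to -0.24, while Acp5 peaks at 1.13 on day 10.

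Genes with the most similar time course were sought among 15360 genes by Pearson's correlation of log2 TPM (pseudocount 0.1) over the 9 days. All points share their libraries and 54.3% of genes tested followed day, so these values are descriptions. Nearest to Acp5 were G0s2 and Rev3l (r = 0.994 for both), and nearest to Ctsk were Scamp5 (0.999) and Sdf4 (0.998). Mmp9 was followed most closely by Inpp4a and Tspan32 (r = 0.971 and 0.970), Atp6v0d2 by Osbp2 and BC053749 (0.975 and 0.971), and Nfatc1 by Plxnc1 and Ccdc41 (0.995 and 0.992). The matches of Mmp9 and Atp6v0d2 include the Mmp9 level of day 8, from 4 counts, and the Atp6v0d2 level of day 10, from a short assigned length. Acp5 had r = 0.957 with the osteoblast collagen gene Col1a1, 0.936 with the macrophage lysozyme gene Lyz2 and 0.769 with Csf1r. For Ctsk these were 0.958, 0.940 and 0.747, so both genes had higher correlations with Col1a1 and Lyz2 than with Csf1r. These are single markers, and the other osteoblast and macrophage markers were not compared in this way. The osteoblast markers Sp7 and Alpl dropped after day 2, where Col1a1 rose. Nfatc1 had r = -0.967 with Col1a1, -0.852 with Lyz2 and -0.608 with Csf1r.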

How the data were processed

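Levels of the 10 genes were taken from 27 RNA profiles of sorted calvarial cells. Per the labels, complementary DNA was amplified (NuGEN Ovation) before library construction, and reads were processed with Bowtie 0.12.9 and RSEM 1.2.8 on NCBIM37, while the paper's methods name RSEM 1.2.0 and triplicate samples. The authors deposited an expected count for each gene, estimated by RSEM and not normalized, and whether counting used strand is not given in the sources used here. The TPM values deposited by the authors divide these by length and sum to 1000000 per profile, and the FPKM values deposited by the authors scale them to length and to the aligned fragments. The gene lengths deposited by the authors are means over the transcripts that RSEM assigned.

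Expected counts of the 3 lane profiles of a day were summed and rounded. Replicate numbers coincide with lanes and did not pair the samples (mean correlation of same-numbered deviations -0.00363). Totals per profile were 7331125 to 20888956 counts. The 9 libraries were fitted with a line in day in edgeR 4.0.16 (R 4.3.3) by the quasi-likelihood test, with upper-quartile factors, the filterByExpr filter at a minimum of 10 counts and Benjamini-Hochberg adjustment at 0.05, after a test on simulated data. Since nothing shows separate cultures per profile, p-values measure the scatter of single libraries round the line. TPM of each profile was scaled to the mean upper quartile, after the paper's methods. Ratios to Csf1r used a pseudocount of 0.5 counts and exact permutation tests over the 9 days (scipy 1.17.1, Python 3.11.15). Amplified reads are not independent molecules, so intervals and the limit at 3 counts cover counting error only. Gene positions came from GENCODE for NCBIM37, which gave symbols to 37205 of 37991 identifiers, and promoter windows from RefSeq on GRCm38.p6. No coordinates were converted.

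The 10 genes, the role lists and the marker lists were chosen with earlier results of these data known, and named genes were all members, all listed partners by role, the cell type markers and the 2 nearest genes by time course. Some genes of these lists are not reported here and were left out of the lists' counts. Alternatives tried were TMM factors, DESeq2 1.42.0, other filters, other thresholds, scales and pseudocounts, 27 separate profiles without and with the replicate block, a natural spline with 3 degrees of freedom, early against late days, and each replicate and each day left out.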

Additional observations from a re-analysis of the deposited data

How the results depend on the processing

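With 1 library per day, neither culture nor library effects can be told apart from day, and genes with few counts (Oscar, Ocstamp, Mmp9 to day 10) are limited by depth. Of 269 values of single genes recomputed under alternatives, 249 kept their direction and their side of the threshold, and of 120 recomputed counts 116 stayed within 1.5 times the reported count. Acp5 (3.29 to 4.91), Ctsk (1.63 to 2.62), Mmp9 (1.99 to 5.45), Atp6v0d2 (4.23 to 6.91) and Nfatc1 (-1.72 to -1.03) stayed past the threshold in all 20 alternatives of the fit (highest adjusted p, for Mmp9, 0.0419). The ranges mix measures. The lowest values of Acp5, Ctsk and Atp6v0d2 are differences of days 14 to 18 against days 2 to 6, not scaled to the span from day 2 to day 18. The values 1.99 and 6.91 are from the spline, whose test was of any change over the days. With the 27 profiles as separate samples and the replicate block, 10881 genes followed day (10754 without the block, 8510 in the summed libraries) and the same count of 5 members was called, so the block changed no call of a member. Leaving out single replicates or days gave 5 to 6 members that followed day, 4 to 5 that rose, 1 that fell, and 7187 to 8447 genes. The sixth was Ocstamp without day 16. The fitted changes of Oscar and Clcn7, never called, changed sign: Oscar was 0.11 for days 14 to 18 against days 2 to 6 and -1.13 to 1.04 over left-out libraries (0.37 without day 16, 0.26 without day 18, 1.04 without day 4, 0.48 without replicate 2), and Clcn7 was -0.116 to 0.148 (-0.116 without day 2, -0.00172 without day 18). At a threshold of 5 TPM, 4 members were reached in place of 7. With the 7 markers in place of Csf1r, 5 ratios passed in place of 2 (Ctsk r = -0.946, Oscar -0.903 and Ocstamp -0.768 joined), and Acp5 (r = -0.631), Mmp9 (-0.570) and Atp6v0d2 (-0.0819) changed sign without passing. Left-out libraries gave 1 to 4 ratios, with r of -0.410 to 0.540 for Acp5 and -0.0462 to 0.592 for Atp6v0d2. Without day 2 there were 4, with Ctsk (-0.878) and Oscar (-0.919) joining, and Acp5 (-0.410) and Atp6v0d2 (-0.0462) changed sign. Without day 18 there was 1, as Clcn7 (r = -0.816, adjusted p = 0.0665, exact permutation test) no longer passed. For these changes the cause was not tested.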

Other observations

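Among the markers of other blood cells, Cd4 had 1, 30, 0, 0, 4, 4, 39, 96 and 183 counts on days 2 to 18 and rose (log2 change 4.54, SE 1.54, edgeR quasi-likelihood test, Benjamini-Hochberg adjusted p = 0.0292), whereas Cd3e, which defines T cells, was at 0 in all 9 libraries and Cd79a was not called (0.71, SE 1.26, adjusted p = 0.660). Of the 7 monocyte and macrophage markers Cd14 alone was not called (1.04, SE 0.54, adjusted p = 0.129), while the lysozyme gene Lyz2 rose from 19.9 to 1855 TPM and Cd68 from 1.79 to 114. The late osteoblast genes Bglap (osteocalcin) and Ibsp (bone sialoprotein) rose over the same days, from 1.24 to 208 TPM and from 0.581 to 78.4 TPM, and day 18 held the highest CPM of Acp5 and Atp6v0d2 together with the highest levels of both these osteoblast genes and of the summed macrophage markers. Prdm1, a repressor that assists osteoclast formation, did not pass the filter, with at most 21 counts in a library.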
